A study of Homo sapiens with 6 samples.

Results

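The beta and gamma subunits of heterotrimeric G proteins were examined in RNA-seq of PC9-BrM3 cells with and without silencing of AKR1B10. PC9-BrM3 is a brain-metastatic derivative of the human lung adenocarcinoma line PC9 made by repeated rounds of injection into immunodeficient mice and recovery from their brain metastases, and AKR1B10 encodes an aldo-keto reductase. The BrM3-shAKR1B10 group (labelled AKR1B10 knockdown) carried shRNA vector 1 against AKR1B10, a single shRNA. The BrM3-shNC group (given the genotype wild type in the labels) carried a negative control shRNA. Both were PC9-BrM3 cells kept in routine culture, with no drug, and each group had 3 libraries. The 10 genes described are GNG4, GNG2, GNG5, GNG7, GNG10, GNG11 and GNG12 (7 gamma subunits) and GNB1, GNB2 and GNB4 (3 beta subunits), out of 58735 genes in the table. GNG4 was selected on its measured FPKM, for its decrease in this same comparison, so its difference between the groups is given below as a description, with no test, and supports nothing further. The other 9 genes were taken because they belong to the same protein families.

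The values were FPKM, read fragments scaled by gene length and library size, so levels can be compared between genes per length. Reads on genes numbered from 16964504 to 18709028 a library, and 3 reads on a gene of 1000 bases corresponded to between 0.164 and 0.177 FPKM. AKR1B10 itself was at 108.5 ± 1.52 FPKM (SD, n = 3) in BrM3-shAKR1B10 and at 781.9 ± 14.6 FPKM (SD, n = 3) in BrM3-shNC, 13.9% of the control mean. The keratins KRT7, KRT8, KRT18 and KRT19 and the adhesion genes EPCAM and CDH1, which mark epithelial cells, were between 44.8 and 974 FPKM in each library. The lung adenocarcinoma markers NKX2-1 and NAPSA stayed under 1 FPKM in each library, so the lung origin given in the labels was not visible in these 2 genes. In cultures measured in bulk, fewer cells that use a gene and less RNA of it per cell cannot be told apart.

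A heterotrimeric G protein has an alpha subunit that binds guanine nucleotide and a dimer of a beta and a gamma subunit that do not separate. When a receptor activates the protein, alpha and the beta-gamma dimer act on their own targets, and the dimer regulates ion channels, adenylyl cyclases, phospholipase C beta and phosphoinositide 3-kinase. The beta subunit folds as a propeller, with help from the CCT chaperonin and phosducin-like proteins, before gamma binds. The gamma subunit is a short protein whose cysteine close to the carboxyl end receives a lipid that holds the dimer at membranes. Different gamma subunits are used in different tissues, and GNG4 is best known from brain.

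The ends of the gamma coding sequences are shown because they carry this lipid signal and show how GNG4 resembles and differs from its relatives. Each run below holds the last 24 coding bases before the stop codon, read from the GENCODE 29 transcripts (GRCh38) 5′ to 3′ along the gene's own strand, with the last 4 codons in capitals.
GNG4: aagaagttctttTGTACCATTCTC
GNG2: aagaagtttttcTGTGCCATCCTT
GNG12: gataaaaaaactTGCATCATCTTA
GNG7: gacaagaaacctTGTATTATTTTA
GNG5: ccccagaaagtcTGTTCCTTTTTG
GNG10: gagcctagatccTGTGCTTTACTC
GNG11: gaaaaaggcagcTGTGTTATTTCA
The first capital codon was a cysteine codon in all 7. The last codon was a leucine codon in GNG4, GNG2, GNG12, GNG7, GNG5 and GNG10, the form that is usually given a geranylgeranyl lipid. In GNG11 it was a serine codon, the form that is usually given a farnesyl lipid. The run of GNG4 lies at chr1:235552112-235552135 on the minus strand.

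GNG4 (ENSG00000168243) spans chr1:235547687-235650754 on the minus strand of GRCh38. Its exons cover 5401 bases, of which 228 (4.22%) are the coding bases of the transcript used, so most of the length in which reads were counted is untranslated. Its coding bases were 74.1% identical to those of GNG2, 70.9% to GNG3, 64.9% to GNG7, 64.0% to GNG12 and 56.5% to GNG5. Of the 50-base words in its exons, 1.72% occurred in another gene, and no exon of another gene overlapped its exons. The exons of GNG12, GNG7, GNG11, GNB1 and GNB2 did not overlap other genes either. By contrast, 41.6% of the exonic bases of GNG5 lay in exons of AL359762.3 (same strand) or SPATA1 (opposite strand), 73.1% of those of GNG10 lay in the read-through gene DNAJC25-GNG10, and 27.6% of those of GNB4 lay in AC007620.2 on the opposite strand. Values of these 3 genes are therefore less certain, because how reads in shared exons were assigned is not given in the sources used here.

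GNG4 was at 1.98, 2.65 and 1.88 FPKM in the BrM3-shAKR1B10 libraries, and at 6.02, 5.68 and 6.01 FPKM in the BrM3-shNC libraries. All 3 knockdown values lay below all 3 control values, and the highest knockdown library, number 2, was below the lowest control library, also number 2. These levels rested on 189, 258 and 180 reads in the knockdown and on 597, 519 and 592 reads in the control. The mean was 2.17 ± 0.417 FPKM (SD, n = 3) against 5.90 ± 0.192 FPKM (SD, n = 3), 36.7% of the control mean. On log2(FPKM + 0.1) the difference was -1.42 ± 0.13 (SE of the fit across genes), a 2.67-fold lower level.

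The remaining 9 members gave no difference of that size. Limma was run on log2(FPKM + 0.1) over all genes averaging 1 FPKM or more. A gene was called where its Benjamini-Hochberg adjusted p was under 0.05 and its log2 fold change lay beyond 0.5 in either direction. Of the 13150 genes tested, 7.45% were called lower in BrM3-shAKR1B10 and 5.83% were called higher. This balance turned under some alternatives and not under others, with 980 lower and 766 higher as reported, 976 and 761 after quantile normalization, 873 and 902 with TPM, and 851 and 984 with voom on recovered reads. Of the 10 members, 6 passed the filter on low values, and no call is read for GNG4. Of the 9 others, 5 were tested and 0 were called in either direction. By adjusted p alone, at any fold, 23.1% of all genes tested were lower and 19.4% were higher, and among the 5 other members tested GNB1 was lower and GNG12 was higher.

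GNG12, a widely used gamma subunit, had the highest FPKM of the listed gamma genes in each library. The level of GNG5 beside it is less certain, with 41.6% of its exonic bases in exons of other genes. GNG12 was at 25.0, 23.4 and 24.4 FPKM in BrM3-shAKR1B10 and at 21.6, 21.1 and 20.48 FPKM in BrM3-shNC. The groups did not overlap, as for 54.7% of all genes tested. The mean was 24.3 ± 0.817 against 21.1 ± 0.542 FPKM (SD, n = 3 each). The log2 fold change was 0.20 ± 0.04 (SE), with a limma adjusted p of 0.00643, below the fold threshold.

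GNG5, a gamma subunit made in most tissues, came next in both groups, and its libraries varied most among the abundant members. It was at 11.6, 10.8 and 14.2 FPKM in BrM3-shAKR1B10 and at 16.4, 11.9 and 15.2 FPKM in BrM3-shNC. The groups overlapped, and the log2 fold change of -0.24 ± 0.14 (SE) did not pass the test (limma adjusted p = 0.216). GNG7, best known from striatal neurons, was at 3.33, 2.93 and 3.57 FPKM in BrM3-shAKR1B10 and at 2.95, 3.38 and 3.54 FPKM in BrM3-shNC. The ranges nearly coincided, with a log2 fold change of -0.01 ± 0.10 (SE) and a limma adjusted p of 0.955.

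The other gamma members were under 1 FPKM. GNG11, the gamma member with the serine codon, was at 0.482, 0.417 and 0.425 FPKM in BrM3-shAKR1B10 and at 0.499, 0.252 and 0.413 FPKM in BrM3-shNC, from 13 to 28 reads a library. GNG10 was at 0.342, 0.260 and 0.113 FPKM against 0.439, 0.0397 and 0.257 FPKM, from 1 to 12 reads. Its level is less certain, because most of its exonic bases are shared with DNAJC25-GNG10. Both GNG11 and GNG10 overlapped between the groups and were not tested. GNG2, a gamma subunit often studied together with GNB1, had 0 reads in all 6 libraries, which allows at most 0.0278 FPKM in the library where a read counts most, for counting error only.

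The order of the listed gamma genes by level is given for each group, and the place of GNG4 in it follows from the decrease it was selected for. The place of GNG5 is less certain, because part of its exons is shared with other genes. In BrM3-shNC, GNG12 stood above GNG5, GNG5 above GNG4 and GNG4 above GNG7, each with no overlap between neighbours. In BrM3-shAKR1B10, GNG12 stood above GNG5 and GNG5 above GNG7 with no overlap, and GNG4 came below GNG7. There it overlapped GNGT1 above it and GNG13 below it, both gamma genes outside the 10 members. The order by mean was the same in TPM, which scales each library to the same total, in both groups and for gamma and beta genes, over the genes with reads.

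**Figure D1:**
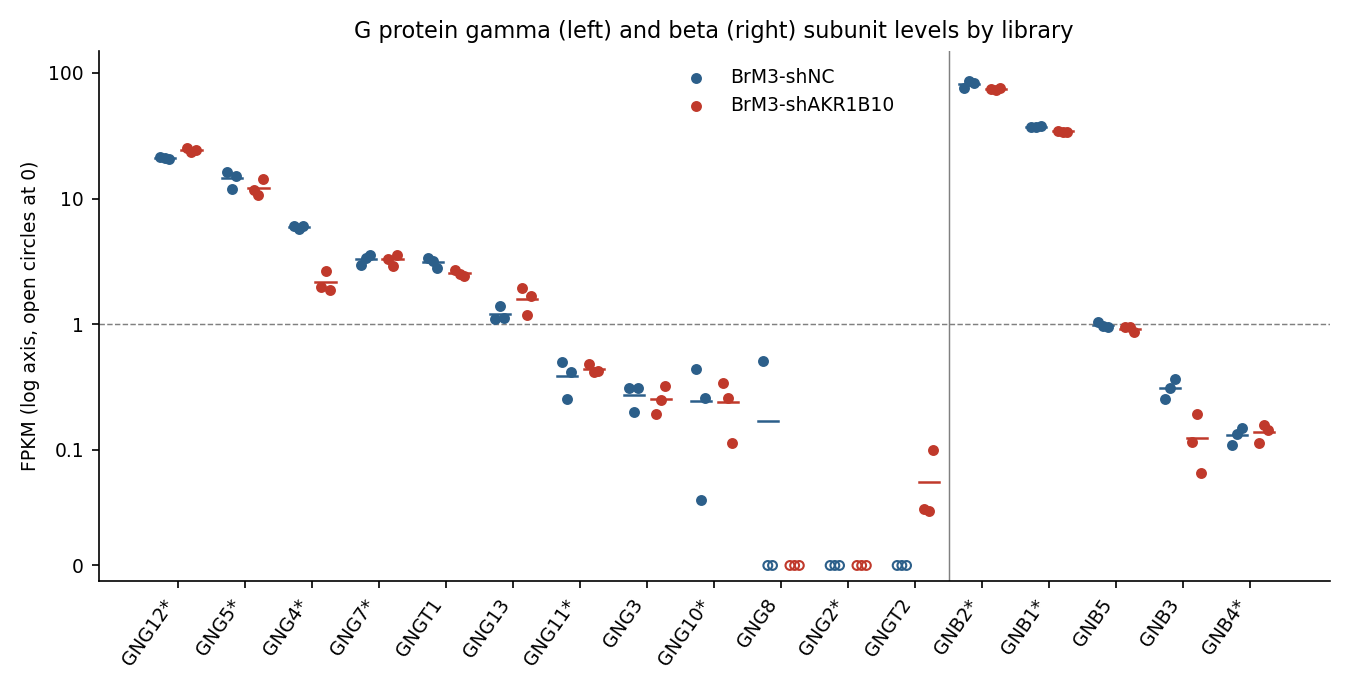
Level of each gamma gene (left of the line) and beta gene (right of it) in FPKM on a log axis, 1 point per library with a bar at the group mean, open circles for a value of 0, asterisks for the 10 members and a dashed line at 1 FPKM. GNG4, selected for its decrease, is at 1.88 to 2.65 against 5.68 to 6.02 FPKM. GNG12, GNG5, GNB2 and GNB1 hold the highest levels in both groups.

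The summed level of the gamma members overlapped between the groups. Their summed FPKM was 42.7, 40.4 and 44.6 in BrM3-shAKR1B10 and 47.8, 42.4 and 45.9 in BrM3-shNC, with overlapping groups. Without GNG4 the sums were 40.8, 37.8 and 42.8 against 41.8, 36.7 and 39.9, so the mean without GNG4 was 0.961 FPKM above the control, and the mean with it differed from the control by -2.77 FPKM. GNG4 held 5.13% ± 1.25 (SD, n = 3) of the gamma members' FPKM in BrM3-shAKR1B10 and 13.03% ± 0.409 (SD, n = 3) in BrM3-shNC, which restates the decrease it was selected for.

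GNG12 took 58.5%, 57.9% and 54.8% of the same sum in BrM3-shAKR1B10 and 45.1%, 49.8% and 44.6% in BrM3-shNC, with no overlap. The shares of GNG5 (26.6% to 31.8% against 28.1% to 34.2%) and of GNG7 (7.24% to 8.005% against 6.17% to 7.98%) overlapped. Because shares add up to the whole, the larger share of GNG12 partly restates the smaller share of GNG4. The shares also depend on GNG5, whose level is less certain because part of its exons is shared with other genes. As ratios of FPKM, GNG12 per GNG4 was 11.5 ± 2.30 against 3.57 ± 0.154, and GNG4 per GNG7 was 0.675 ± 0.201 against 1.81 ± 0.205 (SD, n = 3 each). Over all 12 gamma genes of the lists, those ending in a leucine codon held between 92.8% and 94.0% of the FPKM in each of the 6 libraries, and those ending in a serine codon (GNG11, GNGT1 and GNGT2) held between 6.02% and 7.24%.

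**Figure D2:**
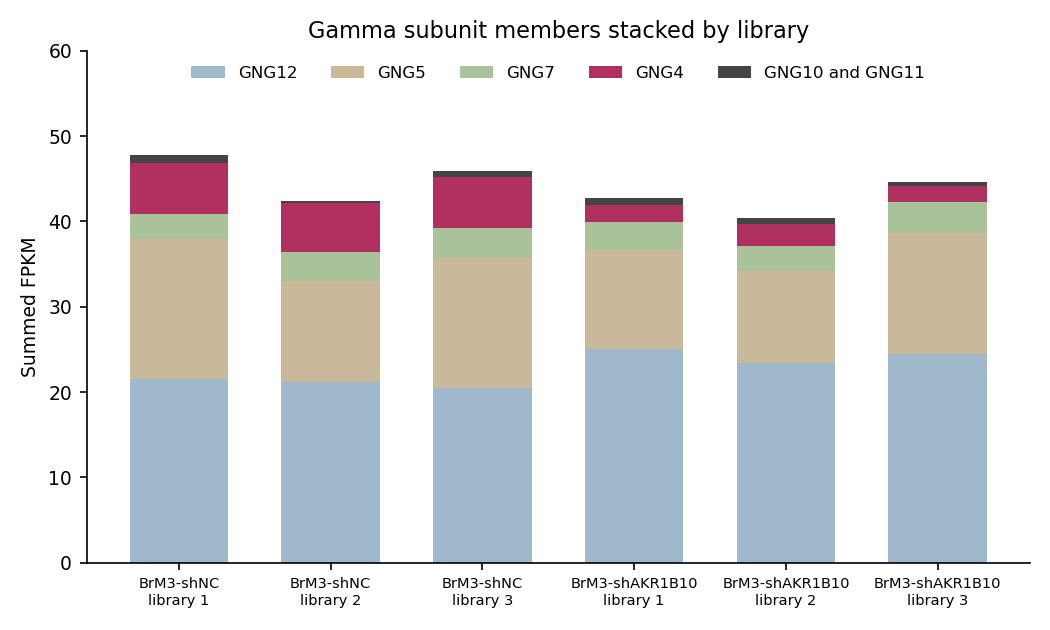
Summed FPKM of the gamma members in each library, stacked by gene from 0, with the BrM3-shNC libraries on the left. The total lies between 40.4 and 47.8 in all 6 libraries, and the GNG4 layer shrinks from between 5.68 and 6.02 to between 1.88 and 2.65.

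GNB2 and GNB1, the beta subunits used in most tissues, carried nearly all beta FPKM. GNB2 was at 74.7, 73.1 and 75.5 FPKM in BrM3-shAKR1B10 and at 76.0, 86.0 and 83.7 FPKM in BrM3-shNC. The groups did not overlap, by a narrow gap to control library 1, but in TPM they did (246.0 to 251.9 against 243.0 to 285.8). The log2 fold change of -0.14 ± 0.05 (SE) did not pass the test (limma adjusted p = 0.0675). GNB1 was at 34.7, 33.8 and 34.0 FPKM against 36.8, 36.8 and 37.6 FPKM. These groups did not overlap either, and the log2 fold change was -0.12 ± 0.03 (SE) with a limma adjusted p of 0.0176, below the fold threshold. That p was 0.107 with TPM, 0.391 after quantile normalization and 0.119 with voom on recovered reads, so it depended on the scaling.

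GNB4 was at 0.113, 0.157 and 0.144 FPKM in BrM3-shAKR1B10 and at 0.108, 0.134 and 0.148 FPKM in BrM3-shNC, from 14 to 20 reads, and was not tested. The summed FPKM of the 3 beta members was 109.5, 107.1 and 109.7 against 112.9, 122.9 and 121.5, with a difference of -10.4 FPKM between the means. These sums did not overlap between the groups in FPKM and did in TPM (360.4 to 368.3 against 360.9 to 408.5). The summed beta members per summed gamma members gave 2.56, 2.65 and 2.46 against 2.36, 2.90 and 2.65, which overlapped. GNB2 per GNB1 was 2.18 ± 0.0349 against 2.21 ± 0.136 (SD, n = 3 each), so the pair kept their proportion within the spread.

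Of the 7 listed beta and gamma genes outside the 10 members, a list without GNG14, 2 were tested, too few to read a count from. Of these, 0 were called (beside 7.45% lower and 5.83% higher of all genes tested). GNGT1, the gamma subunit of rod transducin, was at 2.71, 2.51 and 2.44 FPKM in BrM3-shAKR1B10 and at 3.35, 3.16 and 2.81 FPKM in BrM3-shNC. The groups did not overlap, and the log2 fold change was -0.27 ± 0.09 (SE) with a limma adjusted p of 0.0438, below the fold threshold. GNG13, known from taste and olfactory cells, was at 1.96, 1.18 and 1.66 FPKM against 1.11, 1.38 and 1.11 FPKM. The groups overlapped, with a log2 fold change of 0.37 ± 0.20 (SE) and a limma adjusted p of 0.196. Its values rested on 20 to 34 reads a library, and 19.6% of its exonic bases lay in exons of CHTF18 on the opposite strand.

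The other 5 stayed under a mean of 1 FPKM. GNB5, which pairs with the R7 family of RGS proteins, was at 0.949, 0.941 and 0.869 FPKM in BrM3-shAKR1B10 and at 1.04, 0.960 and 0.956 FPKM in BrM3-shNC. GNB3, known from retinal cones, was at 0.115, 0.193 and 0.0656 FPKM against 0.254, 0.310 and 0.367 FPKM, from 4 to 23 reads. For both the groups did not overlap, and for GNB3 16.0% of the exonic bases lay in exons of CDCA3 on the opposite strand. GNG3 had 3 to 5 reads a library, GNG8 had 2 reads in 1 control library and 0 in the rest, and GNGT2 had 1 to 3 reads in the knockdown and 0 in the control, all too few for a comparison.

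The genes whose levels followed GNG4 most closely across the 6 libraries were SRSF7, a splicing factor (Pearson r = 0.999), ERRFI1, a feedback inhibitor of EGFR (r = 0.998), TPI1, a glycolytic enzyme (r = 0.997), UPF2, a factor of nonsense-mediated decay (r = 0.997), and ZFAND2A, a stress-induced zinc finger protein (r = 0.997). The correlation was computed on log2(FPKM + 0.1) over 10776 protein-coding genes. As 3 of the 6 points are knockdown and 3 are control, genes with separate groups have a high r with GNG4 by construction, and 1203 genes had r above 0.95. SRSF7 was at 30.5 ± 1.16 against 38.0 ± 0.395 FPKM (SD, n = 3 each). Its log2 fold change was -0.31, and the differences of the other 4 lay between -0.41 (TPI1) and -0.15 (ZFAND2A), far smaller than that of GNG4. None of these 5 genes is a G protein subunit.

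Of the 16 alpha subunits, which bind the nucleotide and set which pathway is used, 9 were tested, 0 were called lower and 1 was called higher, beside 7.45% lower and 5.83% higher of all genes tested. GNAQ, which activates phospholipase C beta, was at 14.1, 14.0 and 13.4 FPKM in BrM3-shAKR1B10 and at 7.69, 7.98 and 7.75 FPKM in BrM3-shNC. Its knockdown values lay well above the control values, with a log2 fold change of 0.81 ± 0.04 (SE) and a limma adjusted p of 2.745e-05. GNA11, its closest relative, was at 11.6 ± 0.604 against 11.9 ± 0.306 FPKM (SD, n = 3 each), with a limma adjusted p of 0.565.

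GNAI1, an inhibitor of adenylyl cyclase, was under the filter at 0.694, 0.716 and 0.766 FPKM against 0.380, 0.401 and 0.317 FPKM, with separate groups. It was called higher when no filter was used (log2 fold change 0.83 ± 0.20 SE, limma adjusted p = 0.0413). By adjusted p alone, 3 of the 9 tested alpha genes were lower and 2 were higher, beside 23.1% lower and 19.4% higher of all genes tested. GNA13, GNAS and GNAI3 were lower, and GNAQ and GNA12 were higher. The log2 fold changes of GNA13, GNAS, GNAI3 and GNA12 were -0.34, -0.19, -0.15 and 0.21. The median over the 9 tested alpha genes was -0.07, and that over all 13150 genes tested was -0.01.

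Of 20 genes for proteins that the beta-gamma dimer acts on, 5 averaged 1 FPKM or more and were tested, and 0 were called in either direction, beside 7.45% lower and 5.83% higher of all genes tested. PIK3CG, PIK3R5 and PIK3R6, the catalytic and adapter subunits of the phosphoinositide 3-kinase that the dimer classically activates, were at most 0.0154 FPKM in any library. PIK3CB, another phosphoinositide 3-kinase catalytic subunit that the dimer can activate, was at 9.05, 8.39 and 8.71 FPKM in BrM3-shAKR1B10 and at 8.21, 8.31 and 8.31 FPKM in BrM3-shNC (log2 fold change 0.07 ± 0.04 SE, limma adjusted p = 0.206). ADCY7, an adenylyl cyclase that the dimer stimulates, was the 1 effector lower by adjusted p alone, beside 23.1% of all genes tested. It was at -0.32 ± 0.09 (SE) with a limma adjusted p of 0.0256. PLCB3, a phospholipase C beta, was at 23.5 ± 1.15 against 25.7 ± 0.835 FPKM (SD, n = 3 each), with overlapping groups (limma adjusted p = 0.0682). GRK2, a receptor kinase, was at 27.0 ± 0.424 against 28.7 ± 0.416 FPKM (SD, n = 3 each), with separate groups, as for 54.7% of all genes tested (limma adjusted p = 0.0538). PREX1 did not pass either (limma adjusted p = 0.224). PLCB2, another phospholipase C beta, was under the filter but had 48 to 70 reads a library (0.356 to 0.547 FPKM, with overlapping groups). The potassium channel genes KCNJ3 and KCNJ5 had 0 FPKM in all 6 libraries.

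Among 38 receptors, 17 were tested, 1 was called lower and 3 were called higher, beside 7.45% lower and 5.83% higher of all genes tested. ACKR3, an atypical chemokine receptor, was at 12.8, 13.5 and 13.6 FPKM in BrM3-shAKR1B10 and at 7.55, 6.76 and 6.96 FPKM in BrM3-shNC, which did not overlap (log2 fold change 0.90 ± 0.05 SE, limma adjusted p = 5.622e-05). The nucleotide receptors P2RY2 and P2RY6 were higher by 0.55 ± 0.06 and 0.50 ± 0.07 on the log2 scale (SE), with limma adjusted p of 0.000605 and 0.00182. Both were near the fold threshold. P2RY2 was under it without control replicate 3 (0.49), and P2RY6 with a pseudocount of 1 (0.44), without knockdown replicate 3 (0.45) and without control replicate 2 (0.45). GPRC5B, an orphan receptor, was lower by adjusted p (0.000138, limma) with a log2 fold change of -0.53 ± 0.04 (SE), but it was under the fold threshold with TPM (-0.49), with voom (-0.48) and with a pseudocount of 1 (-0.48). The median over the 17 tested receptors was -0.04.

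Of the 24 RGS and GoLoco genes, which speed up or hold back the alpha subunit, 8 were tested, 2 were called lower and 0 higher, beside 7.45% lower and 5.83% higher of all genes tested. GPSM2, a GoLoco protein that orients the mitotic spindle, was at 3.90, 3.93 and 4.43 FPKM in BrM3-shAKR1B10 and at 7.35, 7.67 and 7.47 FPKM in BrM3-shNC. The groups did not overlap, and the log2 fold change was -0.86 ± 0.06 (SE) with a limma adjusted p of 0.000114. RGS12 was at 1.35, 1.39 and 1.46 FPKM against 2.12, 2.29 and 1.94 FPKM (log2 fold change -0.56 ± 0.10 SE, limma adjusted p = 0.00568), and it was under the fold threshold with a pseudocount of 1 (-0.38). RGS7, an R7 protein, was at -0.62 ± 0.21 (SE) with a limma adjusted p of 0.0526. It was called lower after quantile normalization, with voom and without control replicate 2 (adjusted p = 0.0451, 0.0238 and 0.0234). The median over the 8 tested genes was -0.38, and the highest was RGS10 at 0.22, with overlapping groups.

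**Figure D3:**
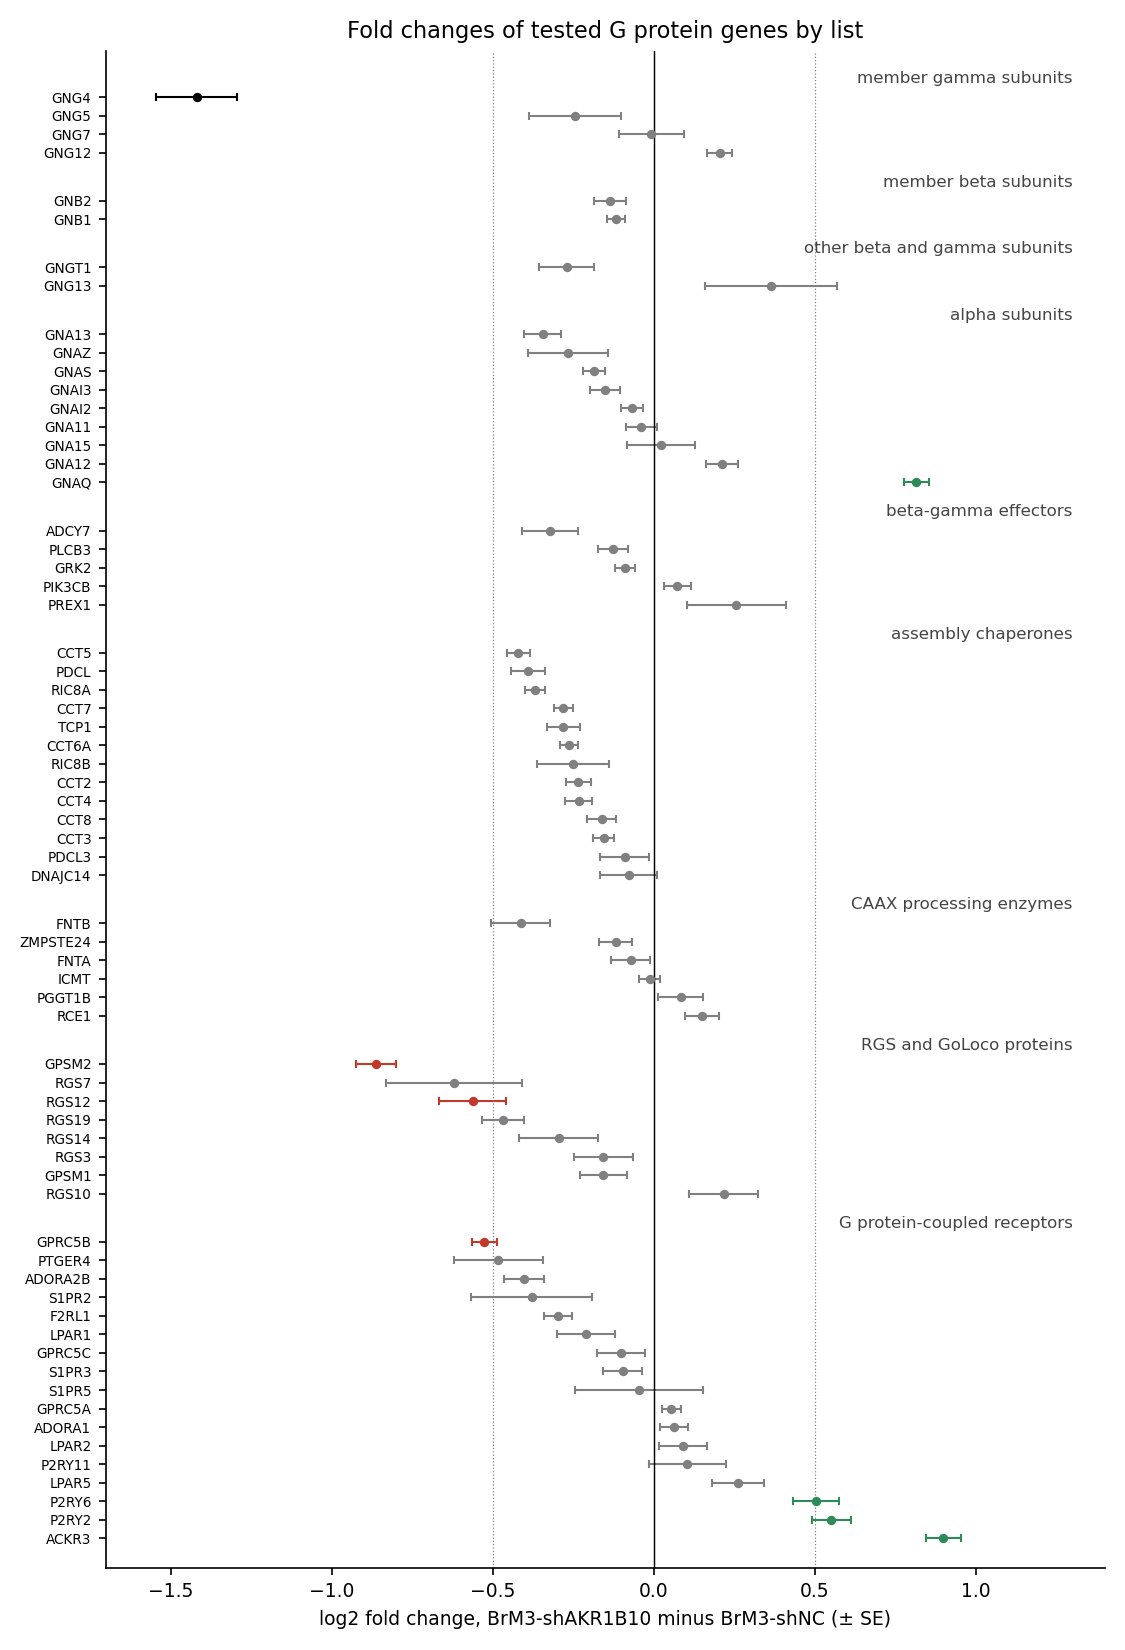
Log2 fold change (BrM3-shAKR1B10 minus BrM3-shNC, limma on log2(FPKM + 0.1), bars are ± 1 SE) of the tested genes of each list, with the list name above its genes, dotted lines at -0.5 and 0.5, red for called lower, green for called higher, grey for not called and black for GNG4, which is shown without a test. GNG4 is at -1.42, the decrease it was selected for. GNAQ at 0.81 is the alpha gene past the threshold, and the chaperone genes lie together between -0.42 and -0.08.

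Of the 16 genes for chaperones that assemble G proteins, 13 were tested and 0 were called, but 10 were lower and 0 higher by adjusted p alone, against 23.1% and 19.4% of all genes tested. The median log2 fold change of the 13 was -0.25. All 8 abundant subunits of the CCT chaperonin (TCP1, CCT2, CCT3, CCT4, CCT5, CCT6A, CCT7 and CCT8), which folds the beta propeller together with actin, tubulin and many other proteins, were among the 10. In all 8 the groups did not overlap, beside 54.7% of all genes tested, and these 8 were singled out after their values were seen.

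CCT5 showed the largest difference among them, at 90.5, 94.4 and 95.9 FPKM in BrM3-shAKR1B10 and at 129.1, 124.1 and 122.9 FPKM in BrM3-shNC (log2 fold change -0.42 ± 0.04 SE, limma adjusted p = 0.000224). CCT3 showed the smallest, at -0.16 ± 0.03 (SE) with a limma adjusted p of 0.00790. PDCL, the phosducin-like protein that releases the folded beta subunit from CCT for gamma to bind, was at 10.4, 10.6 and 10.7 FPKM against 13.2, 14.9 and 13.5 FPKM, again with separate groups (log2 fold change -0.39 ± 0.05 SE, limma adjusted p = 0.00155). RIC8A, a chaperone of alpha subunits, was at -0.37 ± 0.03 (SE) with a limma adjusted p of 0.000257. DNAJC14, PDCL3 and RIC8B did not pass (limma adjusted p = 0.515, 0.383 and 0.115).

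The number of CCT subunits lower by adjusted p alone was 6 after quantile normalization and 7 or 8 under each of the other scalings. Across the alternatives with another scaling, the median log2 fold change of all genes tested lay between 0.01 (quantile normalization) and 0.04 (voom), and the median of the CCT subunits between -0.21 (TPM) and -0.20.

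**Figure D4:**
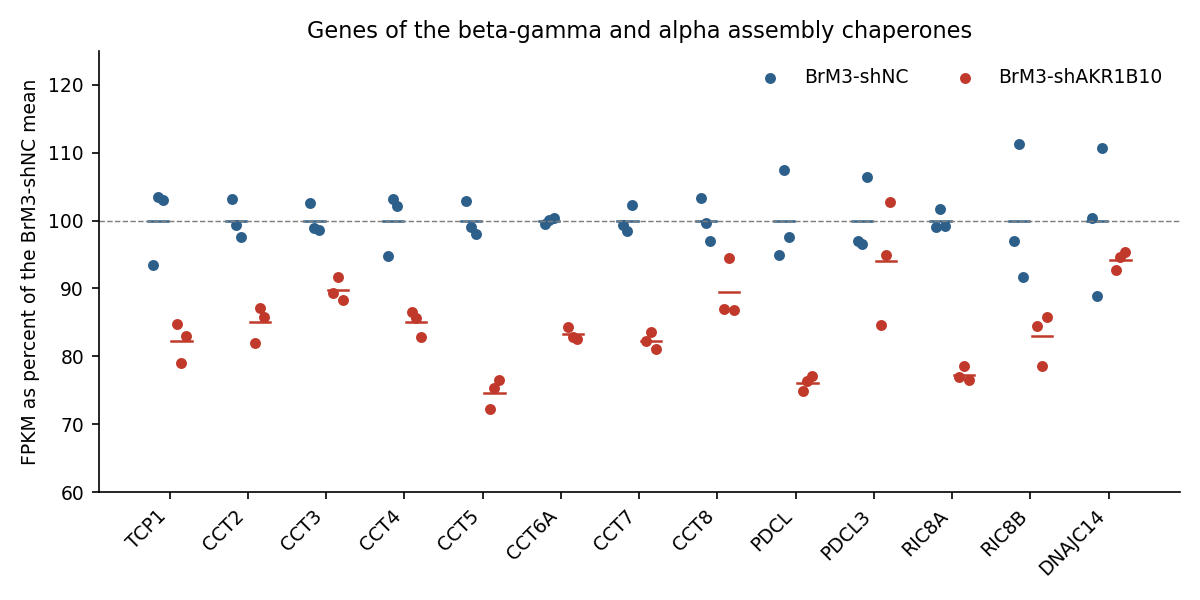
FPKM of the 13 tested chaperone genes in each library as a percent of the BrM3-shNC mean of that gene, 1 point per library with a bar at the group mean. In the 8 CCT subunits, PDCL, RIC8A and RIC8B the knockdown points lie below the control points, and in PDCL3 and DNAJC14 they overlap.

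The 6 genes for enzymes that process the gamma carboxyl end were all tested and 0 were called lower or higher, beside 7.45% lower and 5.83% higher of all genes tested. PGGT1B and FNTA, the subunits of the geranylgeranyl transferase that modifies leucine-ending gamma subunits such as GNG4, did not pass (limma adjusted p = 0.382 and 0.372). FNTB, the beta subunit of the farnesyl transferase, was at 2.22, 2.08 and 1.96 FPKM in BrM3-shAKR1B10 and at 2.995, 2.91 and 2.54 FPKM in BrM3-shNC, with separate groups (log2 fold change -0.41 ± 0.09 SE, limma adjusted p = 0.0123). The median of the 6 was -0.04.

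As GNG4 is best known from neurons, marker genes of other cell types were read beside it. Of 11 neuronal and neuroendocrine markers, 10 were under 1 FPKM in each library, and STMN2, INSM1 and NEUROD1 were at 0 in all 6. The summed level of the 11 was between 8.54 and 9.55 FPKM in BrM3-shAKR1B10 and between 11.8 and 12.9 FPKM in BrM3-shNC, nearly all of it ENO2, a glycolytic enolase. Without ENO2, a sum chosen after seeing the data, the groups overlapped, at 0.656 to 0.983 against 0.598 to 0.727 FPKM, and SYP alone was at 0.380 to 0.465 against 0.306 to 0.345 FPKM. The summed level of 6 glial markers was between 2.49 and 2.64 against 3.37 and 3.48 FPKM, nearly all of it MBP. That of 6 leukocyte markers was between 0.753 and 1.01 against 1.405 and 1.58 FPKM, with PTPRC at most 0.0838 FPKM in any library.

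Of 7 stromal and endothelial markers only 2 were tested, too few to set against the 7.45% lower and 5.83% higher of all genes tested. COL1A1 was called lower (-0.67) and CDH5 was called higher (0.65), and the summed level of the 7 was between 3.47 and 3.57 against 3.60 and 3.84 FPKM. The summed level of the 8 epithelial markers overlapped between the groups, at 3168 to 3254 against 2987 to 3349 FPKM. The sums of the glial, leukocyte and stromal markers, and of the neuronal markers through ENO2, were lower in the knockdown, as GNG4 was, and their part in the level of GNG4 was not tested.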

How the data were processed

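RNA-seq was available for 3 BrM3-shAKR1B10 and 3 BrM3-shNC libraries of PC9-BrM3 cells, grouped and numbered by the sample labels. The study speaks of independent experiments in general, but does not say whether these libraries came from separate cultures, so p-values measure the spread between these samples, which may be technical. The authors filtered the reads (adapters, N bases, low quality), aligned them with HISAT2 2.0.5, counted them per gene with featureCounts 1.5.0-p3 (versions from the submitters' processing notes) and deposited FPKM for 58735 genes with gene lengths. The build, the strand setting and the treatment of overlapping genes are not given in the sources used here. The ID, start, end and strand of all 58735 genes match GENCODE 29 (GRCh38), which was used for positions, exon overlaps, 50-base words and coding ends.

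Reads recovered from FPKM and gene length were whole for 100% of values (tolerance 0.1 read). The deposited FPKM was divided by a library size other than the summed reads, so it already carries a scaling between libraries. Reads per library and the limit of 3 reads cover counting error only.

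As the unit is FPKM, limma 3.58.1 in R 4.3.3 (lmFit, eBayes with trend) was run on log2(FPKM + 0.1) over the 13150 genes averaging 1 FPKM or more, with Benjamini-Hochberg adjustment and the thresholds of 0.05 and 0.5. A fold change on this scale understates the change of low genes. An exact permutation test of 3 against 3 cannot go below p = 0.10 and was not used. The steps were tested on simulated data.

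The members and all lists were chosen with earlier results of these data known, and GNG4 was selected for its decrease. Named genes are the 10 members, 7 other beta and gamma genes, the called genes of each list, the 5 protein-coding genes with the highest r with GNG4, AKR1B10 and markers. One further marker was left out of the lists, counts and sums and is not reported here, for a reason unrelated to its values, and the marker sums cover only the genes kept. Other named genes (in the lists of alpha subunits, effectors, receptors, RGS proteins, chaperones and CAAX enzymes, and in the closing observations) were chosen after their values were seen. Alternatives were pseudocounts of 1 and 0.01, no filter, a minimum mean FPKM of 5, TPM, quantile normalization, voom on recovered reads, eBayes without trend, a replicate block, a log2 fold change above 1 and each library left out. No sequence of the proteins was used here.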

Additional observations from a re-analysis of the deposited data

How the results depend on the processing

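In the 15 alternatives that kept GNG4, its log2 fold change lay between -1.56 and -1.13. These alternatives refit the values it was selected on, so they describe its decrease and support nothing further. No filter, eBayes without trend, a replicate block and a log2 fold change above 1 leave its fold change at -1.42 by construction. The value of -1.13 came with a pseudocount of 1, which shrinks low genes by construction, and leaving out single libraries gave -1.56 to -1.33. With a minimum mean FPKM of 5 GNG4 was not among the genes fitted. Apart from GNG4, for which no call is read, no member was called under any alternative. GNG12 kept an adjusted p under 0.05 in 16 of 16 alternatives, GNB1 in 9 of 16, GNGT1 in 7 of 15 and GNB2 in 1 of 16 (0.00586 without control replicate 1). These counts include the log2 fold change above 1, which changes only the threshold of a call and repeats the reported adjusted p. Among the single libraries, that of GNB1 passed 0.05 without knockdown replicate 2 (0.0615), knockdown replicate 3 (0.0582) or control replicate 3 (0.0555). GNG7, close to no difference, turned to 0.0283 with TPM and 0.0425 with voom, and ranged from -0.0828 to 0.0681 with libraries left out. GNG5 ranged from -0.38 (without control replicate 2) to -0.15 (without control replicate 1), and GNG13 from 0.21 (without knockdown replicate 1) to 0.56 (without knockdown replicate 2), with adjusted p above 0.05 throughout. The summed gamma level (log2 ratio of the means) was -0.09 with all gamma members and 0.0347 without GNG4.

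The replicate numbers did not pair the samples (correlation of deviations between -0.0155 and 0.00388). A replicate block, which cannot move a fold change in this balanced design, gave 967 genes lower and 719 higher, against 980 and 766. It moved the adjusted p of GNB1 to 0.0523 and changed no count of called list genes.

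Over all genes, a minimum mean FPKM of 5 gave 532 lower and 290 higher, a pseudocount of 1 gave 497 higher, and a log2 fold change above 1 gave 205 lower and 168 higher. At a log2 fold change above 1 the alpha list had 0 genes higher, the RGS and GoLoco list 0 lower, and the receptors 0 lower and 0 higher. The alpha list had 2 higher with no filter (GNAQ and GNAI1). The RGS and GoLoco list had 1 lower with a pseudocount of 1 and with a minimum mean FPKM of 5. It had 3 lower with quantile normalization, with voom and without control replicate 2 (RGS7 added), and without knockdown replicate 3 or control replicate 1 (RGS19 added, at -0.50 and -0.53). The receptors had 0 lower with a pseudocount of 1, TPM or voom, 2 lower with a pseudocount of 0.01 or quantile normalization (GPRC5B and PTGER4) or no filter (GPRC5B and F2R, at -1.79), and 1 to 2 with libraries left out. The cause of these differences was not tested. Few reads, at most 28 a library, limit GNG10, GNG11, GNB4, GNB3 and GNG3. For GNG10, 73.1% of the exonic bases lie in DNAJC25-GNG10, and whether this lowers its count was not tested.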

Other observations

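Several genes outside the lists, with names like those of the subunits, were read as well, chosen after their values were seen. GNB1L, a protein with beta propeller repeats that is not a subunit of the dimer, was at 1.24, 1.22 and 1.03 FPKM in BrM3-shAKR1B10 and at 1.52, 1.39 and 1.75 FPKM in BrM3-shNC. Its groups did not overlap, and its log2 fold change of -0.38 had a limma adjusted p of 0.0734. GNG14, a protein-coding gene with a gamma subunit name, was not in the lists, the order or the shares above. It was at 0.531 to 1.198 against 0.417 to 0.769 FPKM, from 3 to 9 reads a library. GNG12-AS1, an antisense RNA of GNG12, had at most 7 reads in any library, which is few beside the 1688 to 2088 reads of GNG12.

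The pseudogenes GNG5P1, GNG5P2, GNG5P3 and GNG5P5 were at 0 in all 6 libraries, and GNG10P1 had 1 read in 1 library. The read-through gene DNAJC25-GNG10, which holds most exonic bases of GNG10, had 2 reads in 1 control library and 0 in the other 5. Its upstream partner DNAJC25, a chaperone of the DnaJ family, was at 7.73, 8.10 and 8.92 FPKM in BrM3-shAKR1B10 and at 7.35, 6.72 and 6.63 FPKM in BrM3-shNC. The DNAJC25 groups did not overlap, with a log2 fold change of 0.25 and a limma adjusted p of 0.0249, below the fold threshold.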
